A study of Mus musculus with 54 samples.

Results

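Bulk RNA-seq of kidney cell suspensions was compared between dissociation at 37 °C (warm) and at 4 °C (cold), in the 6 libraries BG17 to BG22 out of the 54 samples of the series. The members were chosen by their labels as bulk libraries of C57BL/6J suspensions: BG17, BG19 and BG21 were cold-dissociated and BG18, BG20 and BG22 warm-dissociated. All 6 came from whole kidneys of male mice, which the methods of the study describe as AFAPIL.1DEL C57BL/6J litter mates, 19 weeks old and with no earlier procedure. The meaning of the allele name was not given, and it was shared by both groups. Warm dissociation used quartered kidneys and an enzyme mix of the Miltenyi Multi-tissue dissociation kit 2 in a heated dissociator. Cold dissociation used kidneys minced on ice and a protease of Bacillus licheniformis that works in the cold, with DNase I. Temperature, enzyme, mincing, run time, centrifugation speed and wash buffers thus differed together and cannot be told apart. Total RNA of the cells left after loading the droplet device was depleted of ribosomal RNA and read at 150 nt. Aliquots of suspensions of the same 2 protocols gave 6 fresh 10x libraries (BG1, BG3 and BG5 cold, BG2, BG4 and BG6 warm), and their UMIs (molecules counted by a unique tag), summed over all cells of a library, served as a second readout. The labels do not link a warm with a cold library or a bulk with a 10x library by mouse.

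The kidney tubule is lined by cell types in series. The proximal tubule takes back most of the filtered glucose, phosphate, amino acids and bicarbonate and makes glucose, and it burns fatty acids to do so. The thick ascending limb, the distal convoluted tubule and the collecting duct then adjust salt, calcium, magnesium, acid and water under hormones such as vasopressin and aldosterone. Cells that are cut loose from a tissue at body temperature can transcribe genes while the enzymes work, among them the fast genes of signalling cascades, such as chemokines and the inhibitors that switch these cascades off, whereas transcription is slow in the cold. In bulk RNA, fewer cells of a type and less RNA per cell cannot be told apart.

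The libraries held 5969212 to 8184923 counted reads, so that 1 read was worth 0.121 to 0.169 CPM (the read count per gene relative to a library size scaled by TMM, with factors of 0.965 to 1.02). Pearson correlations of log2 CPM across genes were 0.989 to 0.993 within groups and 0.976 to 0.983 between them. Of 27541 genes listed, 14102 had enough reads to be tested, and 764 of these (5.42%) were higher in warm and 460 (3.26%) were higher in cold suspensions at an adjusted p of 0.05 in the quasi-likelihood test of edgeR. Leaving out 1 library gave 551 to 639 genes higher in warm and 219 (without BG22) to 327 (without BG17) higher in cold. Genes past this threshold are termed called, and log2 fold changes are given ± standard error. A difference of at least 2-fold was also reached by 214 genes (1.52%) in warm and by 115 genes (0.815%) in cold suspensions, and by 181 to 218 and 61 to 100 with 1 library left out. Most calls were thus moderate: 550 of the genes called higher in warm and 345 of those called higher in cold changed by less than 2-fold, and the median log2 fold change (warm minus cold throughout) was 0.69 and -0.61. The 3 warm libraries all lay above the 3 cold libraries for 14% of the genes tested, and all below them for 13.7%. The median over all genes tested was -0.01. In the 10x sums, 12061 genes were tested, of which 948 (7.86%) were called higher in warm and 853 (7.07%) higher in cold. These counts leaned on single libraries, with 379 and 392 without BG2, 190 and 254 without BG3, 343 and 411 without BG5 and 414 and 396 without BG6. The labels name no animals, and the study describes its replicates as kidneys of 3 different mice.

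**Figure D1:**
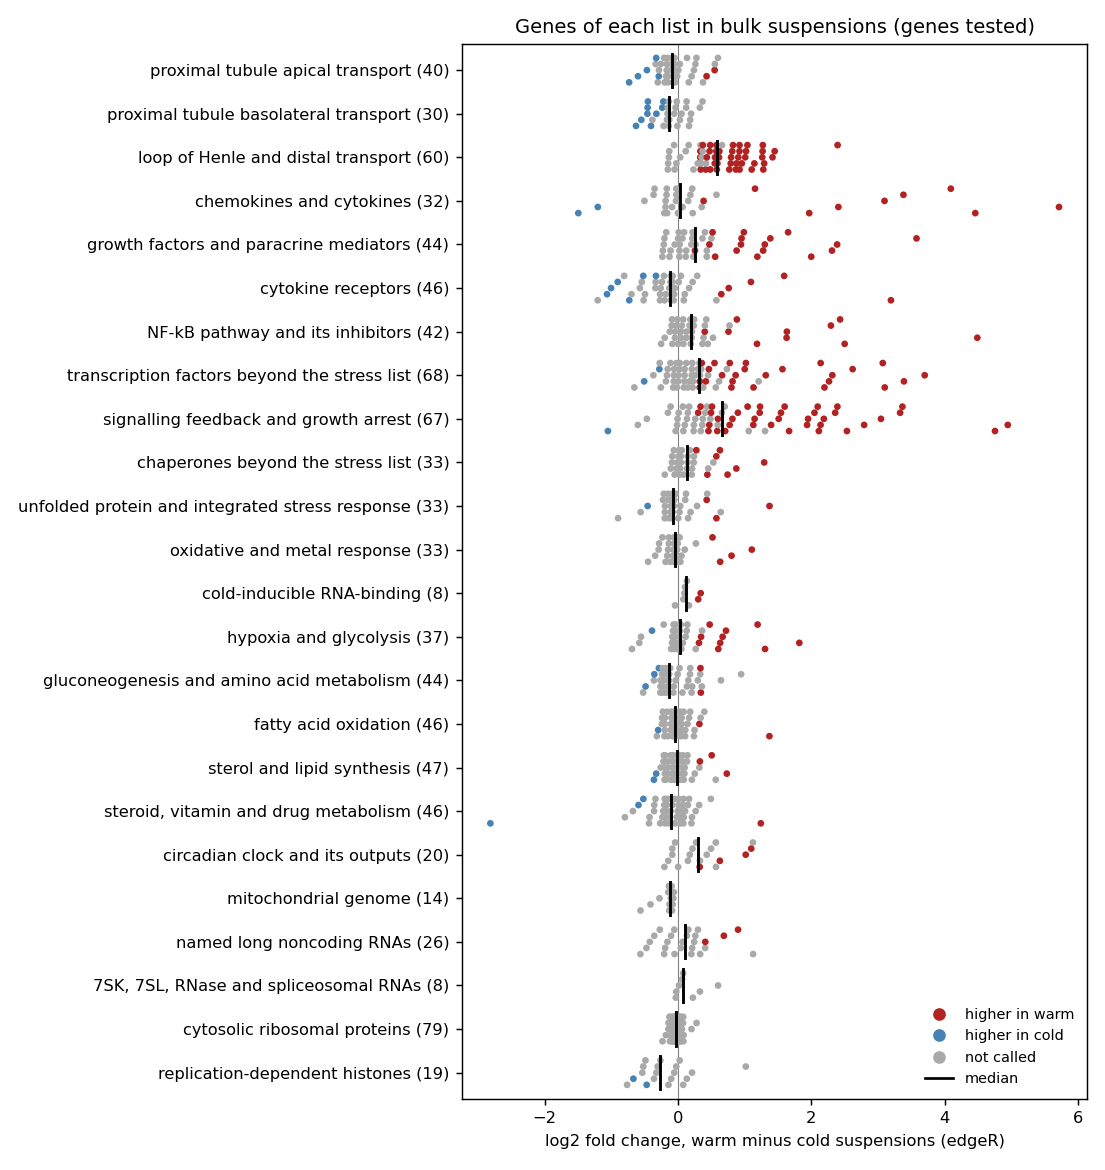
Log2 fold change of bulk suspensions, warm minus cold (x axis), for each gene tested (points) of 24 gene lists (y axis, number of genes tested in parentheses), with red for genes called higher in warm, blue for higher in cold, grey for not called and a black bar at the median. Loop of Henle and distal transport (median 0.58) and signalling feedback (0.66) lay to the right as lists, chemokines and cytokines spread from -1.49 to 5.72 around a median of 0.04, and the 79 cytosolic ribosomal protein genes had no call and a median of -0.03.

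Transport genes of the nephron were considered first. Along the proximal tubule, apical transporters were mostly not called: of 40 genes tested, 5 were called higher in cold (12.5%, against 3.26% of all genes) and 2 higher in warm (5%, close to the 5.42% of all genes), with a median of -0.08. Without BG18, 3 were called higher in cold, and without any 1 of BG18, BG19, BG20 and BG21, 1 was called higher in warm. The phosphate cotransporter Slc34a3 was counted at 93.4, 99.9 and 101 CPM in cold and 60.1, 51.3 and 65.3 CPM in warm libraries (log2 fold change -0.73 ± 0.09, adjusted p = 0.000341). Slc5a2, the glucose cotransporter SGLT2 of the early proximal tubule, stood at 850.5, 862 and 908 CPM in cold and 610.2, 471 and 647 CPM in warm libraries (log2 fold change -0.60 ± 0.10, adjusted p = 0.00331). Slc5a12, a lactate cotransporter, stood at 905, 898 and 972 CPM in cold and 733, 612 and 665 CPM in warm libraries (log2 fold change -0.47 ± 0.08, adjusted p = 0.00328). For each of the 3 genes the warm libraries all lay below the cold libraries. Exons of Slc5a2 overlap BC017158 on the other strand, and it is not stated whether strand was used in the counting, so its count is uncertain. The neutral amino acid transporter Slc6a19 fell by 0.33 and the urate exporter Abcg2 by 0.29 on the log2 scale, with adjusted p values of 0.0338 and 0.0171. The call of Slc6a19 was lost without any 1 of BG17, BG18, BG19, BG21 and BG22 (adjusted p up to 0.125), and that of Abcg2 without any 1 of BG18 and BG20 (adjusted p up to 0.0738). Slc20a1, a phosphate transporter of many cell types, rose (log2 fold change 0.43 ± 0.08, adjusted p = 0.00488), with 47.8, 43.9 and 46 CPM in cold and 64.5, 62.9 and 58.5 CPM in warm libraries. The other gene called higher in warm was Slc6a18, a relative of Slc6a19 (adjusted p = 0.0498). Its log2 fold change was 0.40 to 0.72 with 1 library left out. This call was lost without any 1 of BG18, BG19, BG20 and BG21 (adjusted p up to 0.171) and with DESeq2 (adjusted p = 0.199). Slc34a1, the main phosphate cotransporter of the brush border, was counted at 5031, 5053 and 5344 CPM in cold and 4762, 4612 and 4549 CPM in warm libraries. Lrp2 (megalin, the endocytic receptor) stood at 10742, 10772 and 11694 CPM in cold and 9660.3, 8701 and 8568 CPM in warm libraries. Both had lower values in every warm library and neither was called (-0.15, adjusted p = 0.352, and -0.30, adjusted p = 0.0979).

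On the basolateral side, 9 of 30 genes tested were called higher in cold and 0 higher in warm, with a median of -0.14, against 3.26% and 5.42% of all genes. This count was 5 without BG17, 3 without BG18, 5 without BG19, 4 without BG21 and 4 without BG22. Amino acid exit carriers made up 4 of the 5 largest differences. Slc7a8 (LAT2) stood at 378, 399.9 and 418 CPM in cold and 272, 231 and 314 CPM in warm libraries (log2 fold change -0.55 ± 0.10, adjusted p = 0.00414). Slc7a7 stood at 233, 247 and 271 CPM in cold and 184, 177 and 186 CPM in warm libraries (log2 fold change -0.46 ± 0.07, adjusted p = 0.00168). Its shared heavy chain Slc3a2 stood at 304, 301 and 334 CPM in cold and 230.3, 201 and 254 CPM in warm libraries (log2 fold change -0.45 ± 0.09, adjusted p = 0.00601). The aromatic amino acid carrier Slc16a10 fell by 0.45 (adjusted p = 0.00719), a call lost without BG18 (adjusted p = 0.0512). The export pump Abcc3 fell by 0.63 (adjusted p = 0.0387), a call lost without any 1 of the 6 libraries (adjusted p up to 0.114) and with DESeq2 (adjusted p = 0.139). For each of these 5 genes the groups did not overlap. Exons of Slc7a7 overlap Oxa1l on the other strand.

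The loop of Henle and the distal nephron went the other way. Of 60 transport genes tested there, 42 were called higher in warm, 13 of them by at least 2-fold, and 0 were called higher in cold, against 5.42% and 3.26% of all genes, and the median was 0.58. In 42 genes every warm library lay above every cold library, against 14% of all genes. Leaving out 1 library gave 32 (without BG17) to 42 calls. Genes of the thick ascending limb and distal convoluted tubule come first. Slc12a1, the furosemide-sensitive cotransporter NKCC2, was counted at 1417, 1404 and 1620.1 CPM in cold and 1896, 2474 and 2144 CPM in warm libraries (log2 fold change 0.55 ± 0.10, adjusted p = 0.0059). Umod (uromodulin) stood at 2934, 3053 and 3133 CPM in cold and 3451, 3830.5 and 4219 CPM in warm libraries (log2 fold change 0.33 ± 0.09, adjusted p = 0.0453), a call lost without any 1 of BG17, BG19, BG20, BG21 and BG22 (adjusted p up to 0.145). Slc12a3, the thiazide-sensitive cotransporter of the distal convoluted tubule, stood at 986, 1071 and 746 CPM in cold and 1186, 1798 and 1243 CPM in warm libraries (log2 fold change 0.59 ± 0.16, adjusted p = 0.0358), a call lost without any 1 of BG17, BG20 and BG21 (adjusted p up to 0.125) and with DESeq2 (adjusted p = 0.151).

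The calcium-handling genes of the connecting segment rose by more: Trpv5, the apical calcium channel, by 1.27, the binding proteins S100g and Calb1 by 0.96 and 0.87, and the exchanger Slc8a1 by 0.83 on the log2 scale. In the collecting duct all 3 subunits of the epithelial sodium channel ENaC rose, Scnn1a by 0.80, Scnn1b by 1.27 and Scnn1g by 1.45. Scnn1g stood at 38, 40.7 and 27.9 CPM in cold and 85.5, 82.3 and 124 CPM in warm libraries (log2 fold change 1.45 ± 0.16, adjusted p = 0.000184). Every warm library of Scnn1g was above every cold library. The water channel Aqp2 stood at 95.9, 134 and 62.2 CPM in cold and 167, 210.1 and 224 CPM in warm libraries (log2 fold change 1.04 ± 0.20, adjusted p = 0.00645). The vasopressin receptor Avpr2 stood at 15.8, 18.1 and 11.4 CPM in cold and 33.5, 33.3 and 44.6 CPM in warm libraries (log2 fold change 1.29 ± 0.16, adjusted p = 0.000388). Exons of Avpr2 overlap Arhgap4 on the other strand. The enzyme Hsd11b2, which shields the mineralocorticoid receptor from glucocorticoids, stood at 124, 131 and 67.1 CPM in cold and 244, 222 and 298 CPM in warm libraries (log2 fold change 1.24 ± 0.19, adjusted p = 0.00157). In Aqp2, Avpr2 and Hsd11b2 alike, cold BG21 held the lowest of the 6 values and the groups did not overlap. Of the genes of intercalated cells, Rhbg, an ammonia channel, stood at 5.2, 6.42 and 8.08 CPM in cold and 14.8, 14.3 and 18 CPM in warm libraries (log2 fold change 1.28 ± 0.18, adjusted p = 0.000886). The anion exchanger Slc4a9 stood at 74.6, 78.8 and 65.6 CPM in cold and 133, 131 and 146 CPM in warm libraries (log2 fold change 0.91 ± 0.08, adjusted p = 2.48e-05). The largest difference of the list was that of Cldn4, a claudin of collecting duct tight junctions, with 10.6, 14.9 and 7.09 CPM in cold and 59.8, 42.8 and 68.4 CPM in warm libraries (log2 fold change 2.40 ± 0.21, adjusted p = 2.33e-05). The claudins Cldn7 (0.92) and Cldn8 (0.82) rose as well. Cldn3 stood at 1.09, 1.18 and 1.32 CPM in cold and 2.18, 3.76 and 3.74 CPM in warm libraries (log2 fold change 1.42), a call lost without any 1 of BG17, BG19, BG20 and BG22 (adjusted p up to 0.0821) and with DESeq2 (adjusted p = 0.0534). Exons of Cldn3 overlap Wbscr25 on the other strand.

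**Figure D2:**
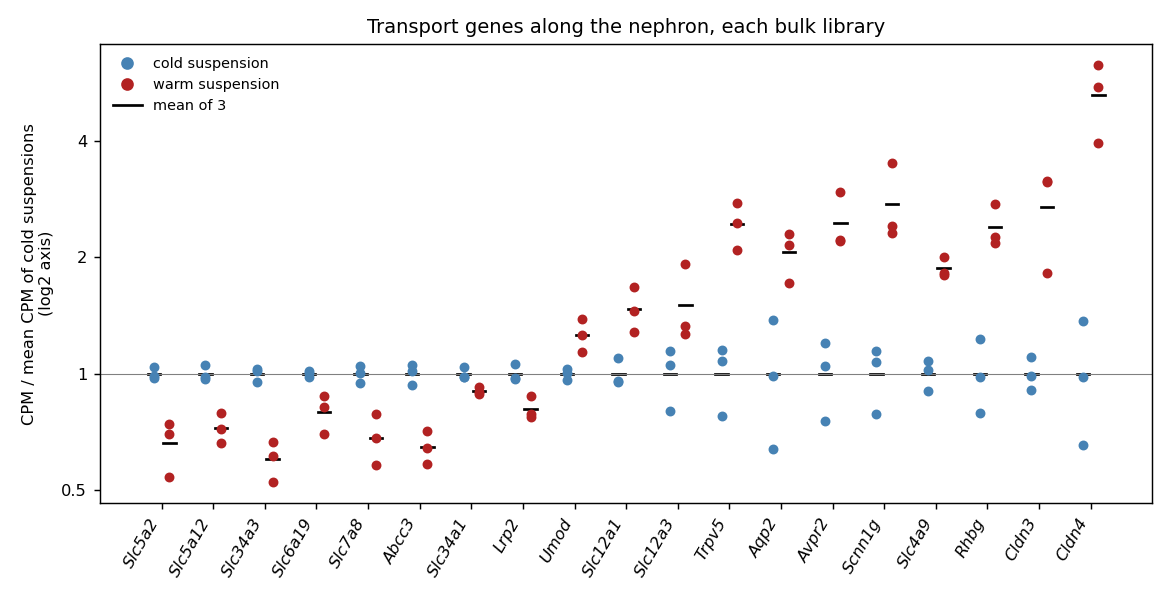
CPM of 19 transport genes in each bulk library, divided by the mean of the 3 cold libraries (y axis, log2 scale), with blue points for cold and red points for warm libraries and black bars at group means. Proximal tubule genes at the left, such as Slc5a2 (-0.60) and Slc34a3 (-0.73), sat below 1 in warm libraries, and genes of the loop, distal tubule and collecting duct rose towards Cldn4 (2.40) at the right.

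The summed level of the marker genes of these cell types moved with the transport genes. The 14 proximal tubule markers summed to 33109.6 to 35600.3 CPM in cold and 28312 to 31031 CPM in warm libraries, and 3 of them were called higher in cold and 0 higher in warm, against 3.26% and 5.42% of all genes. The 10 markers of the thick ascending limb summed to 8109 to 8540.4 and 9628 to 11353 CPM (6 called higher in warm), and the 10 of the distal convoluted and connecting tubule to 2673 to 3258 and 4114 to 5437 CPM (9 called higher in warm). Principal cell markers summed to 287 to 538 CPM in cold and 837 to 1086 CPM in warm libraries, with 8 of 10 called higher in warm. Intercalated cell markers summed to 419 to 460.0 and 745 to 848 CPM, with 8 of 10 called higher in warm. In none of these 5 lists did the sums of the groups overlap, no marker of them was called in the other direction, and several markers are transporters of the lists above. The part of cell numbers in the transporter differences was not tested.

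The 10x sums gave other values for the same genes. Of 631 genes called higher in warm in bulk and also tested there, 332 had the same sign in the 10x sums, 121 were called higher in warm and 28 higher in cold. Of 383 called higher in cold in bulk, 288 had the same sign, 129 were called higher in cold and 18 higher in warm. Over all genes tested there, 7.86% were called higher in warm and 7.07% higher in cold. Of 38 apical proximal genes tested, 15 were called higher in warm and 0 higher in cold, with a median of 0.39, against 5 higher in cold in bulk. Of 26 basolateral genes, 4 were called higher in warm and 1 higher in cold, with a median of 0.29 against -0.14 in bulk. Of 56 loop and distal genes tested, 6 were called higher in warm and 7 higher in cold, shares near those over all genes, with a median of -0.12, against 42 higher in warm in bulk. Slc34a1 had a log2 fold change of 0.59 in the 10x sums (adjusted p = 0.00694), Slc12a1 of 0.68 (adjusted p = 0.0411) and Aqp2 of -0.90 (adjusted p = 0.0115). Abcg2, called higher in cold in bulk, was called higher in warm there (0.39, adjusted p = 0.022). Cldn4 had 0.55 (adjusted p = 0.0901) and Scnn1g -0.30 (adjusted p = 0.339), and neither was called. Markers of the thick ascending limb had medians above 0 in both readouts (0.50 in bulk and 0.71 in 10x sums). For principal cell markers the medians were 1.14 in bulk and -0.57 in 10x sums, and for intercalated cell markers 0.92 and -0.70. The difference between the readouts was not tested.

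**Figure D3:**
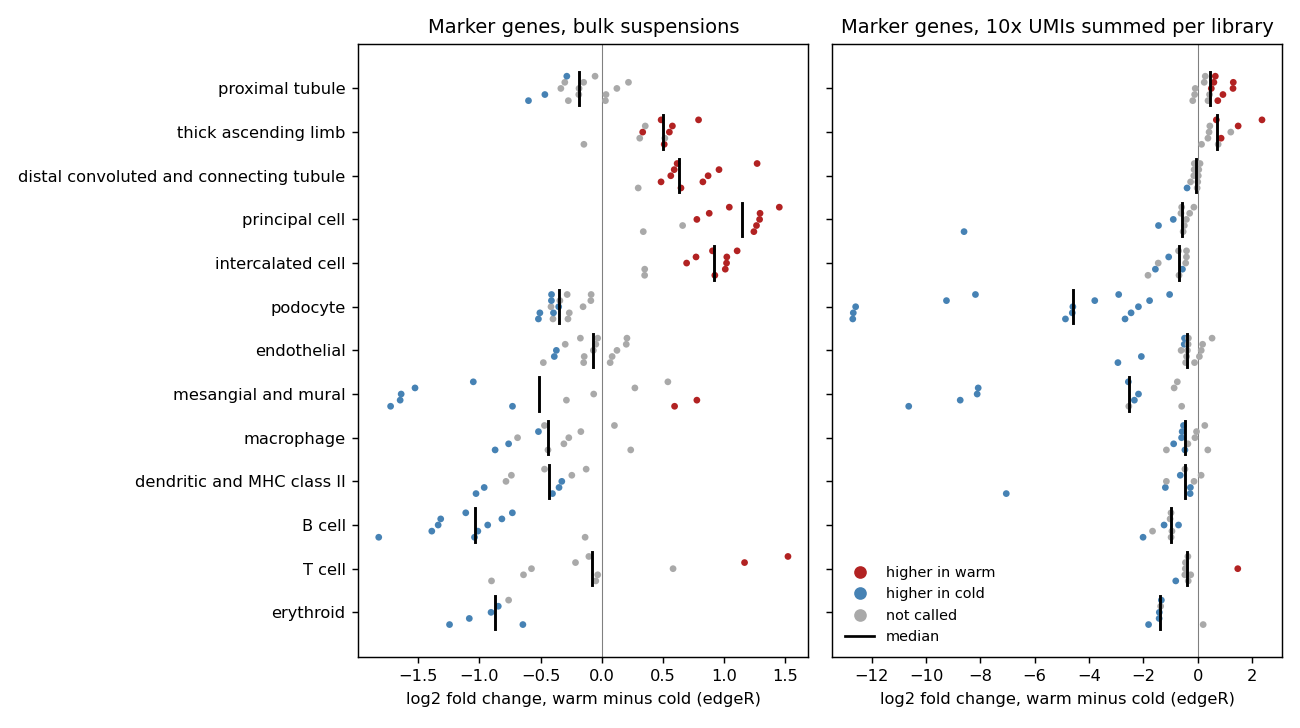
Log2 fold change, warm minus cold (x axes), of marker genes (points) of 13 cell types (y axis) in bulk suspensions (left) and in 10x UMIs summed per library (right), coloured by call as in the legend, with black bars at the medians. Principal and intercalated cell markers lay right of 0 in bulk (medians 1.14 and 0.92) and left of 0 in the 10x sums (-0.57 and -0.70), podocyte markers lay far lower in the 10x sums (-4.60) than in bulk (-0.35), and the points at the far left of the right panel are genes with 0 UMIs in the warm libraries, whose fitted value depends on the prior count.

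Signals between cells were considered next. Of 68 chemokine and cytokine genes, 32 had enough reads to be tested, 9 of these were called higher in warm (28.1%, against 5.42% of all genes) and 2 higher in cold (6.25%, against 3.26%), and leaving out 1 library gave 8 to 11 and 2 calls. Several of the genes called higher in warm were near 0 reads in cold suspensions. These genes passed the read filter only through their warm libraries. The share of 28.1% thus rests in part on genes that were tested because they are high in warm. Cxcl2, a chemokine that draws neutrophils, was counted at 0, 0.169 and 0 CPM in cold and 3.71, 4.19 and 2.67 CPM in warm libraries (log2 fold change 5.72 ± 0.63, adjusted p = 0.000155). Its neighbour Cxcl1, which acts on the same receptor, stood at 0.121, 0 and 0.495 CPM in cold and 4.86, 5.21 and 4.14 CPM in warm libraries (log2 fold change 4.46 ± 0.48, adjusted p = 0.000138). Ccl4, a macrophage inflammatory protein, stood at 0.363, 0.338 and 0.165 CPM in cold and 7.17, 5.06 and 3.74 CPM in warm libraries (log2 fold change 4.09 ± 0.45, adjusted p = 0.000141). Both neutrophil chemokines and Ccl4 were near 0 in cold libraries and counted in every warm library. Ccl3, a relative of Ccl4, stood at 0.484, 0.169 and 0 CPM in cold and 3.58, 1.45 and 3.07 CPM in warm libraries (log2 fold change 3.38 ± 0.61, adjusted p = 0.00471). None of the 4 chemokines overlapped between the groups, and with 1 read worth 0.121 to 0.169 CPM the cold values rest on 0 to 4 reads per library, so that the size of these changes is loosely set. The cytokine Il1b stood at 3.14, 7.27 and 9.07 CPM in cold and 25.7, 23.3 and 24.2 CPM in warm libraries (log2 fold change 1.97 ± 0.24, adjusted p = 0.000326). Tnf stood at 0.363, 0.845 and 0.66 CPM in cold and 4.48, 2.89 and 2.27 CPM in warm libraries (log2 fold change 2.41 ± 0.42, adjusted p = 0.00409). Exons of Il1b overlap the antisense gene Il1bos. Gdf15, a TGF-beta family cytokine of stressed cells, stood at 4.48, 6.59 and 6.43 CPM in cold and 45.8, 44.8 and 56.6 CPM in warm libraries (log2 fold change 3.10 ± 0.15, adjusted p = 8.02e-08). The membrane-bound chemokine Cx3cl1 (0.39) and the interferon-induced Cxcl10 (1.16) completed the 9 genes. The call of Cxcl10 was lost without any 1 of BG17, BG18, BG19 and BG22 (adjusted p up to 0.115).

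Il6 and Ccl2 were too low to be tested, with Il6 at 0, 1 and 0 reads in cold and 1, 2 and 4 reads in warm libraries and Ccl2 at 1, 1 and 1 and 5, 5 and 7 reads. The 2 cytokines called higher in cold are lymphocyte genes. Ltb (lymphotoxin beta) stood at 3.39, 3.38 and 2.8 CPM in cold and 1.02, 1.3 and 1.07 CPM in warm libraries (log2 fold change -1.49 ± 0.29, adjusted p = 0.00707). Il16 stood at 14.3, 13.4 and 9.73 CPM in cold and 6.01, 5.64 and 4.67 CPM in warm libraries (log2 fold change -1.20 ± 0.19, adjusted p = 0.00211). Exons of Il16 overlap Stard5 on the other strand. B cell markers moved with these 2 genes: 10 of 11 tested were called higher in cold, with summed levels of 94 to 134 CPM in cold and 53.3 to 69.6 CPM in warm libraries, and their part in the result was not tested. In the 10x sums Cxcl2 was at 0 UMIs in every cold library, Ccl4 (3.13), Ccl3 (4.63), Il1b (3.16), Gdf15 (1.89) and Cxcl10 (1.98) were called higher in warm, and Ltb (-1.53) and Il16 (-1.10) were called higher in cold.

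The promoters of Cxcl1 and Cxcl2 and of Nfkbia, which encodes the inhibitor IkB-alpha of NF-kB, are shown because they hold the same 9-base word. NF-kB is a transcription factor that inflammatory signals release from this inhibitor. Windows of 250 bases before to 50 bases after the transcription start were taken from RefSeq (GRCm38.p6), and the words GGGACTTTC and GGGAATTTC, both of the type that NF-kB binds, were searched on both strands. In the sequences the match is in capitals, and it reads GAAATTCCC where it lies on the other strand.
Cxcl1 (chr5:90890995-90891294, plus strand): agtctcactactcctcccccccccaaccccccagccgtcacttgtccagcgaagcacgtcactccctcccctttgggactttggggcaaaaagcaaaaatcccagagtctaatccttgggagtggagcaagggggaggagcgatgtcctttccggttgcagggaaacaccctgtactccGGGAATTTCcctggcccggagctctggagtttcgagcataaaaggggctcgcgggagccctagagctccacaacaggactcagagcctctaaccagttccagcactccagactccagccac
Cxcl2 (chr5:90903649-90903948, plus strand): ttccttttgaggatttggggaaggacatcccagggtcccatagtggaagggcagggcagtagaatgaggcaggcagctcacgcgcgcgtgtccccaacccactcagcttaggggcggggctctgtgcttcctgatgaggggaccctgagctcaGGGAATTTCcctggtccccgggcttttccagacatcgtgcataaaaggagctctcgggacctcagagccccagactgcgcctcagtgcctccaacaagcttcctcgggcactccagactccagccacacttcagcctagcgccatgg
Nfkbia (chr12:55492598-55492897, minus strand): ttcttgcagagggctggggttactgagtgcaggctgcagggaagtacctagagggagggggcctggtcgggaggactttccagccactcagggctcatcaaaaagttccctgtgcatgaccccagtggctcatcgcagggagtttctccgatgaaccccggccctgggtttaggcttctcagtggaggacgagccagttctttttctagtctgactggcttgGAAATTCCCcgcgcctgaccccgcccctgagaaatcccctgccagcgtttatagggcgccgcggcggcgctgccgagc
The match began 71 bases before the start of Cxcl1, 97 bases before that of Cxcl2 and 28 bases before that of Nfkbia. GGGAATTTC was found in 3 of 24 windows of the chemokine, cytokine and NF-kB genes called higher in warm (12.5%), in 2 of 54 windows of the genes of these lists that were tested and not called higher in warm (3.7%) and in 85 of all 32851 windows (0.259%). GGGACTTTC was found in 2 of 24, in 3 of 54 and in 0.353% of all windows. Counted by gene, GGGAATTTC was in 3 of 17 (17.6%) and 2 of 41 (4.88%), and GGGACTTTC in 1 of 17 (5.88%) and 3 of 41 (7.32%). In the 42 distal transport genes called higher in warm, GGGAATTTC was found in 1 of 38 windows. A match is a sequence of letters and no measured binding.

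Nfkbia itself stood at 17.4, 16.7 and 15 CPM in cold and 52.5, 47.4 and 52.9 CPM in warm libraries (log2 fold change 1.63 ± 0.10, adjusted p = 4.78e-07). It belongs to the 10 of 42 genes of the NF-kB list that were called higher in warm (23.8%, against 5.42% of all genes), while 0 were called higher in cold (against 3.26%). Among these 10 genes are inhibitors of the signal and nuclear IkB proteins. Tnfaip3 (A20), which takes ubiquitin chains off the signalling complex, stood at 12.7, 12.2 and 11.2 CPM in cold and 80.0, 56.7 and 68.4 CPM in warm libraries (log2 fold change 2.50 ± 0.13, adjusted p = 1.81e-07). The nuclear IkB protein Nfkbiz stood at 16.9, 22 and 17.6 CPM in cold and 100.1, 94.7 and 109 CPM in warm libraries (log2 fold change 2.43). Another one, Nfkbid, rose by 2.30. Socs3, the inhibitor of cytokine receptors that signal through STAT3, stood at 3.99, 2.87 and 3.46 CPM in cold and 83.7, 53.6 and 99.5 CPM in warm libraries (log2 fold change 4.49 ± 0.25, adjusted p = 2.46e-07). The values of these genes lay far apart between the groups in every library. Among the subunits of NF-kB, Rel (0.88, adjusted p = 0.00285) and Nfkb2 (0.40, adjusted p = 0.0216) were called, and Nfkb1 (0.19), Rela (0.19) and Relb (0.40) were not. The call of Nfkb2 was lost without any 1 of BG17, BG18 and BG22 (adjusted p up to 0.0913) and with DESeq2 (adjusted p = 0.0879). The kinases Chuk (-0.09), Ikbkb (-0.04) and Ikbkg (-0.01), which start the cascade, were not called, and neither were the adhesion genes Icam1 (0.24) and Vcam1 (-0.02). The transcription factor Irf1 rose from 22.5, 24.3 and 23.4 CPM to 80.0, 59.6 and 78 CPM (log2 fold change 1.63), and its exons overlap Gm17334 on the other strand. By 10x sums, 11 of 42 genes of this list were called higher in warm and 0 higher in cold, against 7.86% and 7.07% of all genes tested there, among them Socs3 (3.32), Tnfaip3 (2.18), Nfkbiz (2.15) and Nfkbia (0.78), and also Icam1 (0.78) and Vcam1 (1.14).

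**Figure D4:**
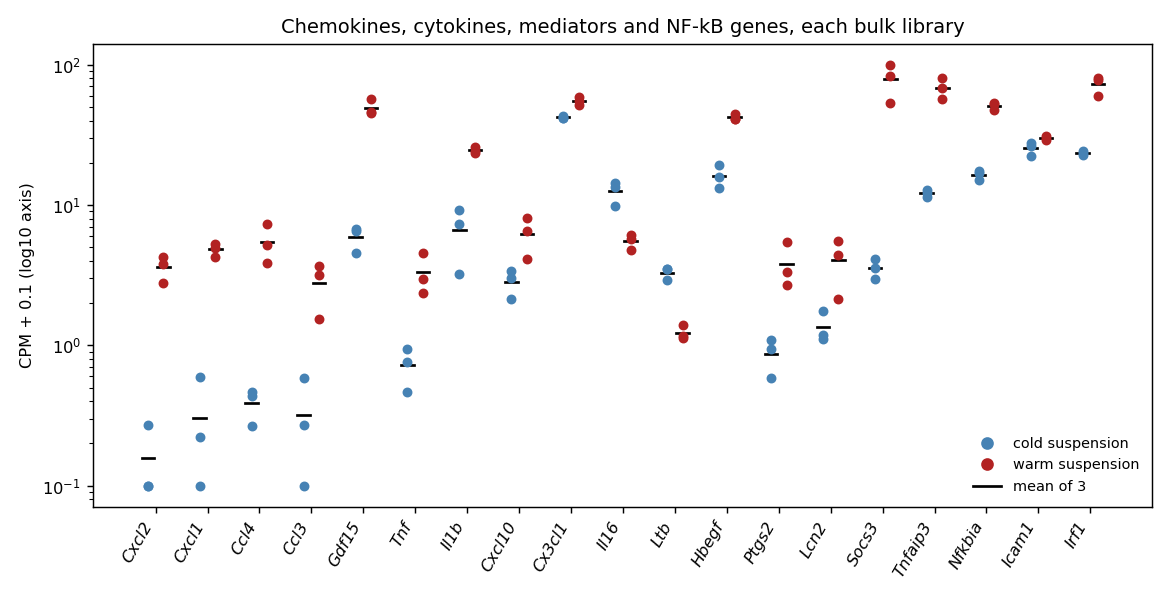
CPM plus 0.1 (y axis, log10 scale) of 19 cytokine, mediator and NF-kB genes in each bulk library, with blue points for cold and red points for warm libraries and black bars at group means. Cxcl2, Cxcl1, Ccl4 and Ccl3 rose from near 0 in cold libraries, Socs3 rose from 3.99, 2.87 and 3.46 to 83.7, 53.6 and 99.5 CPM, and Il16 and Ltb were lower in all warm libraries.

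Of 44 growth factors and local mediators tested, 17 were called higher in warm (38.6%) and 0 higher in cold, against 5.42% and 3.26% of all genes, with a median of 0.26 and 12 (without BG17) to 17 calls when 1 library was left out. Of 33 tested in the 10x sums, 4 were called higher in warm and 3 higher in cold, against 7.86% and 7.07% of all genes there, with a median of -0.09. Cyr61, a matrix protein induced by mechanical signals through YAP, showed the smallest adjusted p of the lists and stood at 16.6, 21.5 and 19.5 CPM in cold and 240.3, 243 and 199 CPM in warm libraries (log2 fold change 3.58 ± 0.11, adjusted p = 9.34e-10). Its relative Ctgf rose by less, from 38.6, 38.2 and 38.6 CPM to 72.6, 69.1 and 82 CPM (0.95). Hbegf, a ligand of the EGF receptor, stood at 15.8, 19.3 and 13.2 CPM in cold and 40.8, 44.1 and 41.3 CPM in warm libraries (log2 fold change 1.39 ± 0.12, adjusted p = 1.86e-05). Ptgs2 (cyclooxygenase 2) stood at 0.484, 0.845 and 0.99 CPM in cold and 5.37, 2.6 and 3.2 CPM in warm libraries (log2 fold change 2.31 ± 0.41, adjusted p = 0.0043), and the prostaglandin E synthase Ptges rose by 1.30. The urokinase receptor Plaur rose by 1.28, and the plasminogen activators Plau (0.43) and Plat (0.12) were not called. Hdc, the histamine-forming enzyme, rose by 2.39 from 0.484, 0.507 and 0.495 CPM to 2.18, 3.33 and 2.54 CPM. The kidney injury marker Lcn2 stood at 1.09, 1.01 and 1.65 CPM in cold and 2.05, 4.34 and 5.47 CPM in warm libraries (log2 fold change 1.65, adjusted p = 0.0244), a call lost without any 1 of BG17, BG19, BG20 and BG22 (adjusted p up to 0.101). Vegfa, the endothelial growth factor made by podocytes and tubules, rose by 0.26 (adjusted p = 0.043), a call lost without any 1 of BG17, BG19, BG20, BG21 and BG22 (adjusted p up to 0.132) and with DESeq2 (adjusted p = 0.0559). In the 10x sums Cyr61 (4.57) and Hbegf (1.88) were called higher in warm, Ctgf (-0.09) was not called, and Vegfa (-0.75) was called higher in cold.

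Of 46 receptors tested, most of them for such signals, 5 were called higher in warm (10.9%) and 6 higher in cold (13%), against 5.42% and 3.26% of all genes, with a median of -0.12. Of 35 receptors tested in the 10x sums, 0 were called higher in warm and 7 higher in cold, against 7.86% and 7.07% of all genes there, with a median of -0.23. The count higher in warm was 3 without BG17, and that higher in cold was 3 without BG18 and 3 without BG19. Hcar2, a receptor for ketone bodies and nicotinate on myeloid cells, stood at 0, 0.169 and 0.99 CPM in cold and 2.82, 3.04 and 4.14 CPM in warm libraries (log2 fold change 3.20 ± 0.58, adjusted p = 0.0051). With 1 library left out its log2 fold change was 2.47 (without BG17) to 5.25 (without BG21), and the cold values rest on 0, 1 and 6 reads. Hcar2 thus passed the read filter only through its warm libraries and adds to the share of 10.9%. The chemokine receptor Cxcr4 stood at 3.51, 3.04 and 4.62 CPM in cold and 11.8, 9.98 and 11.9 CPM in warm libraries (log2 fold change 1.59 ± 0.20, adjusted p = 0.000374), and the lymph node homing receptor Ccr7 rose by 1.10 (adjusted p = 0.0175), a call lost without any 1 of BG17 and BG20 (adjusted p up to 0.0843). The groups of Hcar2, Cxcr4 and Ccr7 did not overlap. The monocyte receptor Ccr2 stood at 26.5, 33.5 and 29.7 CPM in cold and 15.9, 13.6 and 13.1 CPM in warm libraries (log2 fold change -1.06 ± 0.12, adjusted p = 0.000223). The neutrophil receptor Csf3r stood at 10.0, 10.1 and 11.1 CPM in cold and 4.99, 4.92 and 5.61 CPM in warm libraries (log2 fold change -1.0 ± 0.17, adjusted p = 0.00271). Both were lower in every warm library. Il6ra fell by 0.73 (adjusted p = 0.0072) and the macrophage receptor Cx3cr1 by 0.90 (adjusted p = 0.0446), the latter call being lost without any 1 of BG18, BG19, BG21 and BG22 (adjusted p up to 0.163). Il1r1, the receptor of interleukin 1, rose by 0.76 (adjusted p = 0.00917), and Tnfrsf1b, a receptor of TNF, fell by 0.52 (adjusted p = 0.0217), a call lost without any 1 of BG17, BG18, BG19 and BG22 (adjusted p up to 0.0834) and with DESeq2 (adjusted p = 0.0793). Macrophage markers summed to 349 to 425 CPM in cold and 267 to 321 CPM in warm libraries. Of 11 tested, 3 were called higher in cold, against 3.26% of all genes, and 2 had a log2 fold change above 0. The count called was 1 without BG18, 1 without BG19 and 5 without BG20. Neutrophil markers summed to 16.1 to 19.8 and 8.06 to 10.9 CPM, with 1 of 3 tested called, and Csf3r is itself 1 of them. The part of cell numbers in the receptor differences was not tested.

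Inside the cell, the feedback genes that follow a signal held the largest share of genes called higher in warm of the 24 gene lists after distal transport. Of 67 genes of signalling feedback and growth arrest beyond the stress list of the study, 38 were called higher in warm (56.7%, against 5.42% of all genes) and 1 higher in cold (1.49%, below the 3.26% of all genes), and leaving out 1 library gave 31 to 37 calls in warm and 1 in cold. Rgs1 and Rgs16 shorten signals of G protein-coupled receptors. Rgs1 stood at 0.605, 0.507 and 0.99 CPM in cold and 22.4, 24 and 19.4 CPM in warm libraries (log2 fold change 4.95 ± 0.24, adjusted p = 5.32e-08). Rgs16 stood at 0, 0.169 and 0 CPM in cold and 2.3, 1.59 and 1.47 CPM in warm libraries (log2 fold change 4.76 ± 0.71, adjusted p = 0.00145). The cold values of Rgs16 rest on 0 or 1 read. Zfp36 (tristetraprolin), which destroys mRNAs of cytokines, stood at 13.2, 16.6 and 17.5 CPM in cold and 120.3, 113 and 153 CPM in warm libraries (log2 fold change 3.05 ± 0.14, adjusted p = 2.89e-08). Gadd45b, a growth arrest gene, stood at 2.78, 3.72 and 1.32 CPM in cold and 26.7, 19.7 and 33 CPM in warm libraries (log2 fold change 3.33 ± 0.27, adjusted p = 9.89e-06). The small GTPase Rasd1 stood at 2.9, 2.54 and 1.98 CPM in cold and 29.8, 20.1 and 28.2 CPM in warm libraries (log2 fold change 3.37 ± 0.21, adjusted p = 8.53e-07). Of the phosphatases that switch off MAP kinases, Dusp5 (2.05), Dusp2 (2.39), Dusp10 (adjusted p = 0.00677) and Dusp4 (adjusted p = 0.0292) were called higher in warm. The call of Dusp4 was lost without any 1 of BG17, BG18, BG20, BG21 and BG22 (adjusted p up to 0.122). Dusp6 (0.15), Dusp14 (-0.03) and Dusp16 (-0.01) were not called. The cell death genes Bbc3 (0.66), Pmaip1 (0.24) and Bcl2l11 (0.34) were not called, nor were Cdkn1a (0.60) and Mdm2 (0.17) of the p53 response. Rgs5, the gene of the list that was called higher in cold, marks pericytes and stood at 107, 134 and 80.3 CPM in cold and 56.6, 46.7 and 51.5 CPM in warm libraries (log2 fold change -1.05 ± 0.15, adjusted p = 0.000933).

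Among transcription factors outside the stress list, 25 of 68 tested were called higher in warm (36.8%, against 5.42% of all genes) and 2 higher in cold (2.94%, close to the 3.26% of all genes). Leaving out 1 library gave 19 to 22 calls higher in warm, and no call higher in cold without any 1 of BG17, BG18, BG19, BG20 and BG22. The 3 orphan receptors of the Nr4a family rose together. Nr4a1 stood at 7.38, 9.97 and 9.9 CPM in cold and 95.3, 81.7 and 105 CPM in warm libraries (log2 fold change 3.39 ± 0.13, adjusted p = 8.89e-09). Nr4a2 stood at 0.847, 0.845 and 0.825 CPM in cold and 10.1, 6.22 and 5.61 CPM in warm libraries (log2 fold change 3.10 ± 0.35, adjusted p = 0.000174). Nr4a3 stood at 0.484, 0.676 and 1.15 CPM in cold and 15.1, 4.63 and 9.61 CPM in warm libraries (log2 fold change 3.70 ± 0.51, adjusted p = 0.000783). Every warm library was above every cold library, and Nr4a3 varied most among warm libraries. Egr2, a relative of the immediate-early factor Egr1, stood at 0.242, 0.338 and 1.15 CPM in cold and 3.84, 4.19 and 6.14 CPM in warm libraries (log2 fold change 3.07). Maff, a small partner of leucine zipper factors, stood at 1.69, 1.52 and 0.99 CPM in cold and 10.2, 7.23 and 9.08 CPM in warm libraries (log2 fold change 2.62). Kruppel-like factors Klf4 (2.32), Klf6 (2.14) and Klf2 (1.57) rose, and Klf5 (0.01), Klf9 (-0.06), Klf13 (-0.07) and Klf15 (0.09) were not called. Klf3 was called higher in cold (-0.28, adjusted p = 0.0407), a call lost without any 1 of BG17, BG18, BG19, BG20 and BG22 (adjusted p up to 0.167) and with DESeq2 (adjusted p = 0.0845). Foxi1 of intercalated cells (1.02), the mineralocorticoid receptor Nr3c2 (0.80) and Tfap2b (0.66) were called higher in warm too, beside the higher sums of distal markers given above. The proximal tubule factor Hnf4a (-0.27) was not called.

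Protein folding genes moved in part. Of 33 chaperone genes beyond the stress list, 7 were called higher in warm (21.2%) and 0 higher in cold, against 5.42% and 3.26% of all genes, and 3 were called without BG17, without BG19 or without BG22. With DESeq2, 4 were called. Dnajb1, Dnajb4 and Dnaja1 are co-chaperones of the Hsp40 family. Dnajb1 stood at 22.9, 28.1 and 32.7 CPM in cold and 55.7, 62.9 and 84.8 CPM in warm libraries (log2 fold change 1.29 ± 0.16, adjusted p = 0.000368). Dnajb4 stood at 30.8, 33.6 and 35.5 CPM in cold and 61.9, 59.1 and 61.8 CPM in warm libraries (log2 fold change 0.88 ± 0.08, adjusted p = 4.31e-05). Dnaja1 stood at 164, 196 and 219.5 CPM in cold and 275, 277 and 343 CPM in warm libraries (log2 fold change 0.63 ± 0.11, adjusted p = 0.00379). For these 3 genes the groups did not overlap. Hsph1, a relative of Hsp70 that exchanges its nucleotide, stood at 106, 119.7 and 170.1 CPM in cold and 167, 197 and 298 CPM in warm libraries (log2 fold change 0.74 ± 0.20, adjusted p = 0.0357). The groups of Hsph1 overlapped, and its call was lost without any 1 of BG17, BG19 and BG22 (adjusted p up to 0.127) and with DESeq2 (adjusted p = 0.219). Hsp90aa1 rose by 0.58 (adjusted p = 0.017), a call lost without any 1 of BG17, BG19 and BG22 (adjusted p up to 0.0677) and with DESeq2 (adjusted p = 0.0727). The mitochondrial chaperones Hspd1 (-0.09) and Hspe1 (0.15) and the constitutive Hspa4 (-0.09) were not called. The letters GAANNTTC, part of the element that heat shock factor binds, were found in 4 of 10 promoter windows of the chaperones called higher in warm with a window (3 of 5 genes) and in 7.86% of all windows.

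The unfolded protein response showed 3 genes called higher in warm and 1 higher in cold among 33 tested (9.09% and 3.03%), close to the 5.42% and 3.26% of all genes, and the median was -0.08. Ddit4, an inhibitor of the kinase mTOR, stood at 5.32, 6.93 and 5.77 CPM in cold and 12.8, 15.2 and 18.4 CPM in warm libraries (log2 fold change 1.37 ± 0.18, adjusted p = 0.000626). Atf4, the central factor of the integrated stress response, stood at 56.2, 67.4 and 74.1 CPM in cold and 104, 90.5 and 99.7 CPM in warm libraries (log2 fold change 0.58 ± 0.10, adjusted p = 0.00316). Some of its targets, Asns (0.29), Psat1 (-0.56) and Phgdh (-0.90), were not called, and neither were the endoplasmic chaperones Hspa5 (0.15) and Hsp90b1 (0.01). The gene of this list called higher in cold was Slc3a2, the heavy chain with the values given above. Of 33 oxidative and metal response genes, 4 were called higher in warm (12.1%) and 0 higher in cold (2 without BG17 and 1 without BG20). Osgin1, an oxidative stress inhibitor of growth, stood at 43.1, 30.9 and 58.1 CPM in cold and 112, 109 and 63.4 CPM in warm libraries (log2 fold change 1.11 ± 0.22, adjusted p = 0.00785), with warm BG22 close to the cold libraries. The metallothioneins Mt1 (0.63) and Mt2 (0.80) rose, and Hmox1 (-0.29), Nqo1 (0.03), Gclc (0.10) and Srxn1 (-0.01), which classic oxidative stress raises through Nrf2, were not called. Of 8 genes of cold-inducible RNA binding and splicing, 2 were called, both higher in warm (1 without BG17 and 0 without BG18). These were Srsf5 (0.34) and Rbm39 (0.30). The RNA-binding proteins Rbm3 and Cirbp are known for their rise in the cold. Rbm3 stood at 52.7, 56.1 and 49.2 CPM in cold and 57.6, 56 and 55.5 CPM in warm libraries. Cirbp stood at 23.1, 23.5 and 15.2 CPM in cold and 23.8, 23.1 and 21.2 CPM in warm libraries. Both overlapped between the groups and neither was called (0.10, adjusted p = 0.518, and 0.13, adjusted p = 0.665).

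Most metabolic genes were not called in bulk. Of 37 genes of hypoxia and glycolysis, 10 were called higher in warm (27%, against 5.42% of all genes) and 1 higher in cold (2.7%, close to the 3.26% of all genes), and leaving out 1 library gave 7 (without BG17 or BG22) to 9 and 0 (without BG20) to 2 (without BG17). Pdk4, a kinase that shuts pyruvate out of the mitochondrion, stood at 51.4, 42.4 and 30.7 CPM in cold and 148, 201 and 95.6 CPM in warm libraries (log2 fold change 1.82 ± 0.23, adjusted p = 0.000466). Pfkfb3, the activator of glycolysis, stood at 25, 24.3 and 20.5 CPM in cold and 52, 59 and 62.6 CPM in warm libraries (log2 fold change 1.31 ± 0.11, adjusted p = 9.57e-06). The glucose transporter Slc2a1 stood at 48.1, 55.3 and 50.1 CPM in cold and 79.3, 78.1 and 95.1 CPM in warm libraries (log2 fold change 0.72 ± 0.09, adjusted p = 0.000509). Pfkp (0.67), Hk1 (0.63) and Pkm (0.61), isoforms of glycolytic enzymes that the distal nephron uses, rose together. The isoform Hk2 (-0.69), the housekeeping enzymes Gapdh (-0.06), Pgk1 (-0.01), Eno1 (-0.02) and Ldha (-0.09) and the hypoxia target Egln3 (0.05) were not called.

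Of 44 genes of gluconeogenesis and amino acid metabolism, 2 were called higher in warm and 3 higher in cold. Without BG22 these counts were 0 and 1, and 1 gene was called higher in warm without BG17 or BG18 and 1 higher in cold without BG20. Pck1, the first enzyme of renal glucose output, stood at 1153, 1193 and 904 CPM in cold and 1161, 1233 and 1173 CPM in warm libraries and was not called (adjusted p = 0.474). Gatm, the first enzyme of creatine synthesis, stood at 1233, 1397 and 1724 CPM in cold and 1021, 1011 and 1077 CPM in warm libraries (log2 fold change -0.49 ± 0.11, adjusted p = 0.0144), a call lost without BG18 (adjusted p = 0.0618). Fbp1, a gluconeogenic phosphatase, fell by 0.29 (adjusted p = 0.018), a call lost without any 1 of BG19, BG20 and BG22 (adjusted p up to 0.0857). Fbp1 was called higher in warm in the 10x sums (0.49, adjusted p = 0.0275). In the 10x sums 19 of 43 genes of this list were called higher in warm and 0 higher in cold, against 7.86% and 7.07% of all genes there, with a median of 0.45 against -0.13 in bulk. Of 46 fatty acid oxidation genes, 2 were called higher in warm and 1 higher in cold, and 1 was called higher in warm without any 1 of BG17 to BG21 and 0 higher in cold without any 1 of the 6 libraries. By 10x sums 14 of 47 were called higher in warm and 0 higher in cold, with a median of 0.38. Ppargc1a, the coactivator of mitochondrial genes, stood at 123, 131 and 128 CPM in cold and 157, 158 and 163 CPM in warm libraries (log2 fold change 0.32 ± 0.06, adjusted p = 0.00698). Cpt1a, the entry step of fatty acids into mitochondria, stood at 617, 624 and 622 CPM in cold and 612, 628 and 616 CPM in warm libraries (-0.01, adjusted p = 0.971). Angptl4, an inhibitor of lipoprotein lipase, stood at 20.9, 17.9 and 28.7 CPM in cold and 59.1, 91 and 25.1 CPM in warm libraries (log2 fold change 1.37 ± 0.35, adjusted p = 0.0288). Its warm BG22 fell inside the cold range, and the call was lost without any 1 of BG17, BG18, BG19, BG20 and BG21 (adjusted p up to 0.1) and with DESeq2 (adjusted p = 0.121). Sterol and lipid synthesis genes gave 3 calls higher in warm (1 without BG21) and 2 higher in cold (0 without any 1 of BG17, BG20 and BG22, and 1 without BG18 or BG19) among 47. Acacb, which makes malonyl-CoA at mitochondria, stood at 64.3, 61.3 and 65.3 CPM in cold and 86.4, 121 and 110.4 CPM in warm libraries (log2 fold change 0.73 ± 0.11, adjusted p = 0.00129). In steroid, vitamin and drug metabolism 1 of 46 genes was called higher in warm (2 without BG17 or BG22), Hsd11b2 of the collecting duct, and 3 were called higher in cold. By 10x sums 19 of 40 were called higher in warm and 1 higher in cold, with a median of 0.47 against -0.10 in bulk. In each of these 4 metabolic lists the calls were 2.17% to 6.38% of the genes in warm and 2.17% to 6.82% in cold, close to the 5.42% and 3.26% of all genes. Aldh1a3, a retinaldehyde dehydrogenase that makes retinoic acid, stood at 5.56, 4.39 and 4.45 CPM in cold and 0.64, 0.868 and 0.534 CPM in warm libraries (log2 fold change -2.81 ± 0.31, adjusted p = 0.000155). Cyp2d26 stood at 248, 260.3 and 279 CPM in cold and 181, 185 and 183 CPM in warm libraries (log2 fold change -0.52 ± 0.07, adjusted p = 0.00044). The dipeptidase Dpep1 stood at 210.5, 201 and 259.8 CPM in cold and 146, 136 and 162 CPM in warm libraries (log2 fold change -0.59 ± 0.10, adjusted p = 0.00273). All 3 were lower in every warm library. The androgen-driven Kap was not called in bulk (0.03, adjusted p = 0.844) and was called higher in warm in the 10x sums (1.30, adjusted p = 0.00793). Clock genes gave 4 calls higher in warm of 20, against 5.42% of all genes, and 7 without BG22. Per2 stood at 18.5, 13.7 and 13.9 CPM in cold and 32.4, 37.7 and 24.6 CPM in warm libraries (log2 fold change 1.02 ± 0.16, adjusted p = 0.00239), Noct rose by 1.10 and Nr1d1 by 0.63, and Arntl (-0.08) and Clock (-0.04) were not called. Exons of Nr1d1 overlap Thra on the other strand. Of 19 clock genes tested in the 10x sums, 0 were called higher in warm and 1 higher in cold, with a median of 0.02. Per2 (0.56), Noct (-0.08) and Nr1d1 (0.45) were not called there.

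Noncoding RNAs held 1.74% ± 0.0632 (SD, n = 3) of the reads of cold libraries in long noncoding genes and 1.99% ± 0.18 (SD, n = 3) in warm libraries. The groups did not overlap (exact two-sided permutation p = 0.1, the smallest that 3 against 3 libraries allow). Malat1 alone held most of these reads in every library, so the share of the class leans on that gene. Of 775 long noncoding genes tested, 45 were called higher in warm, a share close to the 5.42% of all genes, and 15 higher in cold, a share below 3.26%. Neat1, the scaffold of nuclear paraspeckles, stood at 828, 800.2 and 792 CPM in cold and 1299, 1512 and 1092 CPM in warm libraries (log2 fold change 0.69 ± 0.10, adjusted p = 0.00136), and every warm library was above every cold library. Firre (0.41, adjusted p = 0.0281) and the snoRNA host Snhg5 (0.90, adjusted p = 0.0492) were called too. The call of Firre was lost without any 1 of BG19, BG20 and BG21 (adjusted p up to 0.0913). That of Snhg5 was lost without any 1 of BG17, BG18, BG19, BG21 and BG22 (adjusted p up to 0.171) and with DESeq2 (adjusted p = 0.153). Without BG19 or without BG21, 1 of 26 named long noncoding RNAs was called. Malat1 stood at 10711, 11439.5 and 11228 CPM in cold and 11583, 14051 and 11567 CPM in warm libraries and was not called (adjusted p = 0.473). In the 10x sums neither Neat1 (-0.05, adjusted p = 0.79) nor Malat1 (-0.002, adjusted p = 0.994) was called. Among the 5 long noncoding genes with the largest rise, Gm17024 stood at 1.69, 2.03 and 2.47 CPM in cold and 12.7, 10.7 and 12.3 CPM in warm libraries (log2 fold change 2.54). Gm12207 stood at 0.121, 0.676 and 0.33 CPM in cold and 2.18, 1.59 and 1.74 CPM in warm libraries (log2 fold change 2.35), a call lost without BG17 (adjusted p = 0.0585). On the cold side, F630028O10Rik stood at 4.11, 5.75 and 5.28 CPM in cold and 0.64, 0.578 and 0.267 CPM in warm libraries (log2 fold change -3.29 ± 0.35, adjusted p = 0.000126), and at -4.33 in the 10x sums (adjusted p = 0.00181). Its groups did not overlap, and its exons overlap Mir223 on the same strand. Gm15987 fell by 2.01 (adjusted p = 0.0174), a call lost without any 1 of BG19 and BG22 (adjusted p up to 0.0787) and with DESeq2 (adjusted p = 0.0695). ENSMUSG00000105954 rose by 3.37 from 0.242, 1.01 and 0.165 CPM to 3.2, 3.9 and 7.21 CPM, but its exons overlap those of Spp1 on the same strand, so its reads cannot be told apart from those of Spp1 (0.15, not called). Of the 53 noncoding genes called higher in warm, here long and small noncoding genes and pseudogenes together, 3 (5.66%) began within 10 kb downstream of a coding gene called higher in warm on the same strand, against 8 of 1054 noncoding genes tested (0.759%) and 0 of the 19 called higher in cold. These are ENSMUSG00000108290, 3335 bases behind Tmem52b, Gm26802 behind Fosb and 1110038B12Rik, 3965 bases behind Hspa1b. The call of 1110038B12Rik was lost with DESeq2 (adjusted p = 0.123).

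Of 43 small noncoding genes tested, 6 were called higher in warm and 1 higher in cold, against 5.42% and 3.26% of all genes. Some of them passed the read filter only through the group where they are high. Mir1938, for example, had 1, 5 and 2 reads in cold and 21, 12 and 17 reads in warm libraries. These shares thus rest in part on genes that were tested because they are high in 1 group. Of the 7 genes called, 3 are microRNA genes. Their mature sequences (RefSeq, GRCm38.p6) are shown with the seed, bases 2 to 8, in capitals, because the seed sets the targets of a microRNA and these 3 genes share none.
mmu-miR-1938 (chr12:40222782-40222803, minus strand): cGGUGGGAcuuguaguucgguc
mmu-miR-3058-3p (chr10:95559244-95559264, minus strand): uUCCUGUCagccgugggugcc
mmu-miR-3058-5p (chr10:95559286-95559308, minus strand): uCAGCCACggcuuaccuggaaga
mmu-miR-27b-3p (chr13:63300760-63300780, plus strand): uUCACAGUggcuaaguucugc
mmu-miR-27b-5p (chr13:63300718-63300739, plus strand): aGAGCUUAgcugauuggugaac
Mir1938 was counted at 0.121, 0.845 and 0.33 CPM in cold and 2.69, 1.74 and 2.27 CPM in warm libraries (log2 fold change 2.45 ± 0.49, adjusted p = 0.00877). The Mir1938 gene (chr12:40222712-40222811) and the Gm17024 gene given above (chr12:40209487-40211073) lie near each other on the minus strand. Whether their reads come from a shared transcript was not tested. Mir3058 stood at 1.33, 1.35 and 1.15 CPM in cold and 2.3, 2.75 and 3.74 CPM in warm libraries (log2 fold change 1.18 ± 0.31, adjusted p = 0.0368). Mir27b stood at 1.81, 2.03 and 1.81 CPM in cold and 0.64, 1.01 and 0.668 CPM in warm libraries (log2 fold change -1.28 ± 0.35, adjusted p = 0.0421). The call of Mir27b was lost without any 1 of the 6 libraries (adjusted p up to 0.147) and with DESeq2 (adjusted p = 0.245), and that of Mir3058 without any 1 of BG17, BG19, BG20, BG21 and BG22 (adjusted p up to 0.144) and with DESeq2 (adjusted p = 0.146). Such libraries are made of longer fragments and do not measure mature microRNAs apart from the transcript around them: Mir27b lies in exons of 2010111I01Rik on the same strand, and Mir1938 in exons of Gm7008 on the other. The groups of the 3 genes did not overlap, at levels of at most 3.74 CPM. Snora28 lies in exons of Eif5 and rose by 1.19 (adjusted p = 0.0152), a call lost without any 1 of BG17, BG18 and BG21 (adjusted p up to 0.0639). The 7SK RNA Rn7sk (0.02) and the other 7 abundant small RNAs tested were not called. Replication-dependent histones, whose mRNAs lack a poly(A) tail, gave 2 calls of 19 (10.5%, against 3.26% of all genes), both higher in cold (1 without BG21, 0 without any other library and 0 with DESeq2). Of 21 mitochondrial genes tested, 4 were called, all higher in cold (against 3.26% of all genes) and all transfer RNAs, named here after their values were seen. The largest was mt-Tm at 8.95, 15.2 and 15 CPM in cold and 3.07, 4.05 and 4.14 CPM in warm libraries (log2 fold change -1.77 ± 0.24, adjusted p = 0.000789), followed by mt-Ti (-1.52), mt-Tq (-1.14) and mt-Tw (-0.76). The mitochondrial mRNA mt-Co1 overlapped between the groups (-0.13, adjusted p = 0.675).

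Among moderate changes, of 0.3 to 1 on the log2 scale and with a mean of at least 10 CPM, 447 of 1187 genes were called higher in warm and 242 higher in cold, against 5.42% and 3.26% of all genes. This set was chosen by the size of the fold change itself, so its larger shares of calls follow from the choice. Krt8, a keratin of simple epithelia, stood at 48.1, 53.7 and 47.8 CPM in cold and 96.9, 92.7 and 96.7 CPM in warm libraries (log2 fold change 0.94 ± 0.07, adjusted p = 8.62e-06). Rap1gap, which switches off the GTPase Rap1, stood at 79.1, 85.2 and 71.3 CPM in cold and 128, 155 and 142 CPM in warm libraries (log2 fold change 0.85 ± 0.09, adjusted p = 8.81e-05). Oxgr1, the 2-oxoglutarate receptor of type B intercalated cells, rose by 0.92 with the intercalated markers given above. Ccnl1, a cyclin of splicing (0.82), and Sik1, a salt-inducible kinase (0.78), rose by similar amounts. On the cold side, Apob, the apolipoprotein of secreted lipoproteins, stood at 1163, 1465 and 1455 CPM in cold and 834, 731 and 834 CPM in warm libraries (log2 fold change -0.77 ± 0.10, adjusted p = 0.000466). Spp2, a secreted phosphoprotein, stood at 177, 204 and 228 CPM in cold and 111, 98.2 and 127 CPM in warm libraries (log2 fold change -0.86 ± 0.11, adjusted p = 0.000374). The phagocyte genes Sirpa (-0.69) and Lyz2 (-0.87) and Hmha1 (-0.94) fell beside the macrophage sums given above. No gene of this paragraph overlapped between the groups.

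Outside the lists, Irg1, the gene of itaconate synthesis in activated macrophages, stood at 0.242, 0.169 and 0.165 CPM in cold and 1.92, 1.74 and 3.47 CPM in warm libraries (log2 fold change 3.48 ± 0.53, adjusted p = 0.00168). The lymphocyte activation marker Cd69 stood at 0.726, 2.54 and 1.81 CPM in cold and 6.91, 8.24 and 5.87 CPM in warm libraries (log2 fold change 2.12 ± 0.33, adjusted p = 0.00188). T cell markers summed to 23.3 to 29.7 CPM in cold and 22.6 to 31.6 CPM in warm libraries. Of 10 T cell markers tested, 2 were called higher in warm and 0 higher in cold, against 5.42% and 3.26% of all genes, both genes of co-stimulation. The calls were lost for Icos (1.52) without any 1 of BG18, BG19, BG20 and BG21 (adjusted p up to 0.128) and with DESeq2 (adjusted p = 0.104), and for Cd28 (1.17) without any 1 of BG17, BG18, BG21 and BG22 (adjusted p up to 0.0774). Stc1, a hormone of calcium and phosphate balance, stood at 3.39, 2.87 and 1.81 CPM in cold and 10.4, 7.52 and 11.8 CPM in warm libraries (log2 fold change 1.84 ± 0.25, adjusted p = 0.000828), against -1.53 in the 10x sums (adjusted p = 0.473). Gprc5a, a receptor induced by retinoic acid, rose by 1.75 and Zfp711 by 1.73. Fam71a had 0 reads in every cold library and stood at 3.45, 2.31 and 4.27 CPM in warm libraries, at least 22.6-fold higher against a floor of 3 reads over the cold group (adjusted p = 0.000411). The search for neighbours given above covered noncoding genes only. Whether reads of Fam71a belong to a transcript of a gene that lies before it was not tested. On the cold side, Fat2, a large protein of the cadherin family, stood at 3.63, 4.39 and 8.08 CPM in cold and 0.512, 0.145 and 0.801 CPM in warm libraries (log2 fold change -3.37 ± 0.48, adjusted p = 0.00103). Lmod1 (-1.90), Ldb3 (-1.82) and Synpo2 (-1.65), proteins known from muscle, fell. Ly6d (-1.98) and Tnfrsf13b (-1.64), a receptor of B cells, fell beside the B cell markers given above.

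Marker genes of other kidney cells were compared as well. Acta2 (smooth muscle actin) stood at 53, 65.1 and 52.3 CPM in cold and 16.1, 16.5 and 18.7 CPM in warm libraries (log2 fold change -1.73 ± 0.11, adjusted p = 1.12e-06), and Myh11 and Tagln fell by 1.64 and 1.53. In the mesangial and mural list 6 of 12 genes were called higher in cold and 2 higher in warm, against 3.26% and 5.42% of all genes. The 2 higher in warm were the integrin Itga8 (0.60) and Gata3 (0.78), which principal cells also express and whose call was lost without any 1 of BG17, BG18, BG21 and BG22 (adjusted p up to 0.134). The summed level was 425 to 562 CPM in cold and 340.2 to 363 CPM in warm libraries, and the renin gene Ren1 (-0.07) and the pericyte receptor Pdgfrb (0.27) were not called. Of the podocyte markers, 6 of 15 were called higher in cold in bulk (40%, against 3.26% of all genes), with a median of -0.35 and sums of 1511 to 1881 CPM in cold and 1232 to 1338 CPM in warm libraries. This count was 3 without BG17, 2 without BG18, 2 without BG19 and 3 without BG20. Nphs1 (nephrin) stood at 83.3, 103 and 87.1 CPM in cold and 70.0, 68.4 and 66.6 CPM in warm libraries (log2 fold change -0.41 ± 0.09, adjusted p = 0.0101). By 10x sums all 15 were called higher in cold (against 7.07% of all genes), with a median of -4.60, and Nphs1, Clic3, Plce1 and Tdrd5 were at 0 UMIs in every warm library. The median was the same with the genes at 0 UMIs set to the bound that 3 UMIs over the warm libraries give. Endothelial markers summed to 1639 to 1849 CPM in cold and 1766 to 1782 CPM in warm libraries, with 2 of 15 called higher in cold (13.3%, against 3.26% of all genes, and 1 without BG17, BG18, BG19, BG20 or BG22).

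Summed levels of the B cell, dendritic and erythroid markers were lower in every warm library than in every cold library. Over all genes tested, 3.26% were called higher in cold, which is the background of the marker counts here. Of the B cell markers, 10 of 11 were called higher in cold and 6 without BG17, BG19 or BG22. Cd79a, a chain of the B cell receptor, stood at 5.56, 4.23 and 3.46 CPM in cold and 1.79, 0.868 and 1.07 CPM in warm libraries (log2 fold change -1.82 ± 0.33, adjusted p = 0.00439). Dendritic and MHC class II genes gave 5 calls of 10, all higher in cold, and 1 without BG18, BG19, BG21 or BG22, with sums of 904 to 1106 and 692 to 839.8 CPM. Erythroid genes summed to 3179 to 4642 CPM in cold and 1439.9 to 2828 CPM in warm libraries, with 5 of 6 called higher in cold, 1 without BG19, 1 without BG21 and 2 without BG22, and with DESeq2 0. Alas2, the erythroid enzyme of heme synthesis, stood at 425, 460.0 and 631 CPM in cold and 327, 115 and 272 CPM in warm libraries (log2 fold change -1.08 ± 0.28, adjusted p = 0.0298), and warm BG20 held its lowest value. Its call was lost without any 1 of BG19, BG21 and BG22 (adjusted p up to 0.119) and with DESeq2 (adjusted p = 0.181). Fibroblast markers gave 1 call of 7 tested (higher in cold, 0 without any 1 of BG18 to BG22) and summed to 148 to 179.6 and 122 to 163 CPM. NK cell markers summed to 10.5 to 13.2 CPM in cold and 6.14 to 7.37 CPM in warm libraries (1 of 4 tested called higher in cold, and 0 without BG17, BG18, BG21 or BG22). Platelet markers summed to 18.6 to 30.8 and 9.69 to 14.1 CPM (2 of 3 tested called higher in cold). Urothelium markers summed to 16.9 to 20.3 and 8.32 to 12.3 CPM (1 of 4 tested called higher in cold). Adipocyte markers stayed at 3.51 to 5.94 CPM in cold and 3.45 to 5.78 CPM in warm libraries with 1 gene tested and none called.

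Where 0 genes of a list were called in a direction, 0 to 2 members passed an unadjusted p of 0.05 in that direction in edgeR's quasi-likelihood test, except for the oxidative and metal response list with 5 in cold, and DESeq2 called 0 members, except for 1 of that list. DESeq2 also called 1 apical proximal transporter in warm, 1 transcription factor in cold, 1 fatty acid oxidation gene in warm and 0 in cold, 1 gene of sterol and lipid synthesis in cold, 2 of steroid, vitamin and drug metabolism in warm, 1 T cell marker in warm, 0 NK cell markers and 5 proximal tubule markers in cold. Among the genes named, exons of Ccnl1, Cldn3, Ctgf, Cx3cr1, Dnaja1, Il6ra, Klf3, Krt8, Mt2, Pfkp, Rbm3, Rgs16, Slc20a1, Slc2a1, Slc34a1, Slc7a7, Stc1, Umod and Zfp36 also overlap another gene on the other strand, and so do those of Malat1 (Gm37376) and mt-Co1 (mt-Ts1). Exons of Rhbg overlap Gm38392 on the same strand, those of Snhg5 Snord50a and Snord50b, those of Malat1 Gm27694, and those of Neat1 Gm27505, Gm27533 and Gm28006. Those of Dnaja1 overlap Mir207 and those of Gm15987 overlap Mir7649, also on the same strand. Their counts are uncertain to that extent.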

How the data were processed

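Bulk RNA of 6 kidney suspensions and fresh 10x libraries of the same protocols were analysed. The authors trimmed the bulk reads with Trim Galore, removed ribosomal RNA reads with TagDust2, aligned the rest to GRCm38 with STAR (2.6.1a in the submitters' processing notes), marked duplicates with Picard and deposited raw counts per gene from featureCounts; whether strand was used in the counting is not given in the sources used here. The 10x files hold deposited UMI counts per gene and cell from Cell Ranger 2.1.1 after the authors' filters on empty droplets, cells and genes, and were summed over the cells of a library here (2356 to 5972 cells and 5252363 to 14064480 UMIs per library), with no further filter and no doublet removal. The other 42 libraries (other strain, storage or nuclei) were not used.

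Bulk libraries held 5969212 to 8184923 reads, and their number limits the precision of low genes. Genes were kept by filterByExpr of edgeR 4.0.16 (R 4.3.3), scaled by TMM and tested with its quasi-likelihood test between the 3 warm and 3 cold libraries, without covariates, with Benjamini-Hochberg adjustment over all genes tested and a threshold of 0.05. Standard errors are the size of the log2 fold change over the square root of F. The 10x sums were tested in the same way. The script was tested on simulated data. Shares of counts by gene class were compared with the exact permutation test (SciPy 1.17.1). Values are CPM on scaled library sizes and were not divided by gene length, so levels are compared within a gene.

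Gene lists (24, with 17 stress genes left out), marker lists (19) and members were chosen with earlier results of these data known. Named by rule were, per list and direction, up to 5 called genes of largest fold change, 10 outside the lists (at least 2 CPM, no overlap), 10 moderate changes of smallest adjusted p (0.3 to 1 on the log2 scale, at least 10 CPM), 5 noncoding genes per class, and a few set genes, giving 183, of which a few are not reported here. Other list members and markers are examples chosen after their values were seen. In several lists some genes passed the read filter only through the group where they are high, which adds to the shares called. Of the genes tested, 13182 matched GENCODE M21 by symbol, 282 by identifier and 330 by older symbol, and 308 did not match. Alternatives were DESeq2 1.42.0, the edgeR exact test, other scalings and filters, protein-coding genes alone and leaving out each library.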

Additional observations from a re-analysis of the deposited data

How the results depend on the processing

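No paired analysis was made because the labels give no replicate number or mouse that links a warm with a cold library. Without a filter on low counts, the count of genes higher in warm suspensions was 1178 and that of genes higher in cold suspensions 734, and that of genes at least 2-fold higher in cold suspensions was 177, against 68 with DESeq2. Leaving out 1 library gave 551 to 639 genes higher in warm and 219 to 327 higher in cold, and 181 to 218 and 61 to 100 of at least 2-fold, with fewer libraries in the fit. In the 10x sums the same gave 190 to 1262 genes higher in warm and 254 to 1170 higher in cold. Of 176 named genes tested and reported, 23 lost their call with DESeq2, 8 with library totals alone, 0 with the edgeR exact test and 25 to 36 when 1 library was left out. Genes that changed sign were not called in the first place, and the cause was not tested. The log2 fold change of Cpt1a was 0.00223 at a mean of at least 1 CPM, 0.00537 without a filter, 0.0202 with library totals alone and -0.0116 to 0.0109 with 1 library left out. With 1 library left out, the values ran from -0.0344 to 0.234 for Cirbp and from -0.0944 to 0.106 for Rn7sk. The log2 ratio of the share of counts, warm over cold, changed sign with 1 library left out for protein-coding genes (-0.00703 to 0.00974), pseudogenes (-0.0418 to 0.0223) and mitochondrial genes (-0.22 to 0.0299). Differences between genes near 1 read per library in the cold could not be sized at this depth.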
